A study of Canis lupus familiaris with 32 samples.

Results

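Skin taken 24 h after a house dust mite patch was compared with skin taken 6 h after the patch in the same 8 dogs. The 16 arrays were chosen by their labels, as the challenged-side biopsies at 6 h and at 24 h, 8 of each and paired by dog number, out of 32 arrays in all. The dogs were atopic Maltese-beagle crosses, 5 males and 3 females aged 5.5 to 10.5 years, sensitized through the skin to the mite Dermatophagoides farinae and chosen because such a challenge gave them skin lesions. Mite patches were placed on the side of the thorax, and biopsies were taken under sedation and local anesthesia. The other 16 arrays are skin 6 h after a mineral oil patch and skin 48 h after the mite patch, from the same dogs. No oil-patched biopsy of 24 h is among the arrays, so time since patching and the allergen cannot be told apart in this comparison. Both groups carry the same allergen, and the comparison asks how challenged skin differed between the first hours and the next day.

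In allergic skin, keratinocytes and resident immune cells release alarmins, cytokines and chemokines within hours of contact with the allergen. Type 2 cytokines such as interleukin 13 act on keratinocytes and fibroblasts, and chemokines made in the skin then draw in granulocytes, dendritic cells and T cells. Calprotectin and its relatives, acute phase proteins and endothelial selectins accompany such an influx.

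Values are log2 signals of array probe sets, and differences are log2 differences, 24 h minus 6 h, from a limma model with the dog as a term. A difference passed at an adjusted p of 0.05. Of 42860 probe sets, 3621 (8.45%) rose and 3795 (8.85%) fell, of which 153 and 207 differed at least 2-fold. Rises were 48.8% of these calls, and 68.3% of the calls (5387 rises, 2501 falls) when each array was first centred on its median. Gene names were attached to 10512 probe sets, and among these linked genes 886 rose (8.43%) and 859 fell (8.17%). The median difference over all linked genes was -0.03. The epidermal genes KRT5 and KRT10, which mark basal and suprabasal keratinocytes, were present on every array, at 9.77 or more and 10.47 or more.

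Skeletal muscle genes were high in some biopsies and low in others. The mean signal of 11 linked muscle genes, such as the myosin MYH2 and the troponin TNNC2, was at least 7.46 on 9 of the 32 arrays and at most 5.48 on the other 23. Dogs 1, 2, 3, 5 and 6 had a muscle-rich biopsy at 6 h, and dogs 2 and 4 at 24 h. The mean fell short of the test between the times, at 6.48 ± 2.29 (SD, n = 8) and 4.33 ± 1.97 (exact permutation over sign changes, two-sided p = 0.07, adjusted p = 0.12 over 5 whole-array measures). It was lower at 24 h in 7 of 8 dogs. Dogs 2, 7 and 8 had biopsies of like muscle content at both times. A fit to these 3 dogs and a fit without the 9 muscle-rich arrays passed 0 probe sets in limma, with 5655 and 4835 at an unadjusted p under 0.05. A rule, given with the processing, picked 174 genes for description, of which 151 passed. All 151 kept their sign in both of these smaller fits, and the median share of the difference that was kept was 74.3% and 78.2%. These genes had been picked as passing in the fit to all 32 arrays. The smaller fits reuse part of those arrays, so the kept signs are not independent support. For each of the 30 leading genes whose difference was over 1.5 times smaller without the muscle-rich arrays, that value is given beside it, and for some of the others too.

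The gap between the 3′ and 5′ probe sets of the actin control, a measure of how intact the labelled RNA was, also moved with time. It was 2.78 ± 0.48 at 6 h and 2.08 ± 0.37 at 24 h, lower in 8 of 8 dogs (exact two-sided p = 0.0078, the smallest that sign changes over 8 dogs allow, adjusted p = 0.019). The gap with another 5′ actin probe set was 2.70 at 6 h and 2.69 at 24 h (exact p = 0.92), and that of another actin control was 0.52 and 1.08 (exact p = 0.24). With the first gap as a covariate 160 probe sets rose and 327 fell in limma. Of the 151, 15 still passed, CCL19, SAA1, NLRP10, FMO2, CLEC3B, SEPP1 and CXCL12 among them. CCL17, IL13RA2, S100A8, S100A9, S100A12 and TNFAIP6, described below, did not (adjusted p = 0.138, 0.0907, 0.0738, 0.179, 0.168 and 0.166). The median signal of an array was lower at 24 h in 8 of 8 dogs, by 0.06 on average (exact p = 0.0078, adjusted p = 0.019), and lowest, at 4.64, on the 24 h array of dog 5. The part that RNA quality has in the results was not tested further.

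**Figure D1:**
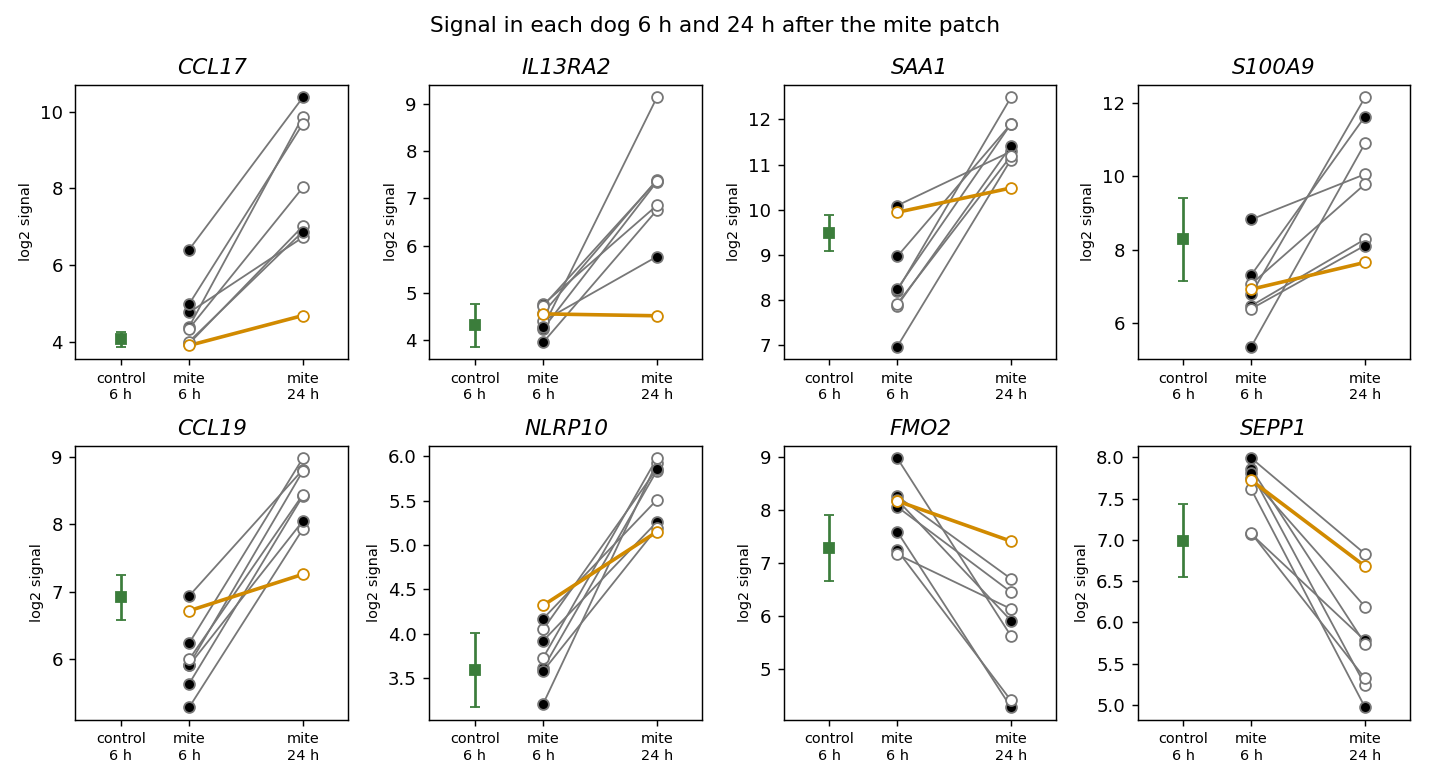
Log2 signal of 8 genes in each dog 6 h and 24 h after the mite patch, 1 line per dog. Filled circles are muscle-rich arrays, dog 8 is drawn in orange, and the green square with its bar is the mean and SD of the 8 oil-patched control biopsies. CCL17 rose in 8 of 8 dogs, by 0.78 in dog 8, while IL13RA2 differed by -0.04 in that dog.

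Among linked genes that passed, the largest rise was that of a type 2 chemokine. CCL17, which attracts T cells bearing the receptor CCR4, had signals of 3.90 to 6.40 with a median of 4.36 at 6 h, and of 4.68 to 10.37 with a median of 7.52 at 24 h. The groups overlapped because dog 8 stayed low at 24 h. Dog 2 was already high at 6 h, but below the 24 h values of all dogs except dog 8. CCL17 rose by 3.31 ± 0.58 (SE), a 9.94-fold difference (limma, adjusted p = 0.000404), and was higher in 8 of 8 dogs. Without the muscle-rich arrays the difference was 3.28 (adjusted p = 0.218), and with the actin gap as a covariate 2.55 (adjusted p = 0.138). It passed in neither fit. At 6 h its mean was 4.59, against 4.06 in the control (adjusted p = 0.719).

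Genes of the interleukin 13 axis followed. IL13RA2, the decoy receptor that binds interleukin 13, ran from 3.96 to 4.76 with a median of 4.48 at 6 h, and from 4.52 to 9.13 with a median of 7.10 at 24 h. Every dog but dog 8 lay well above its own 6 h value. The rise was 2.45 ± 0.35 (adjusted p = 8.09e-05), and 1.93 without the muscle-rich arrays. The cytokine IL13 itself rose less, by 0.93 ± 0.29 (adjusted p = 0.0302), from 3.74 to 6.33 with a median of 3.97 at 6 h to a range of 4.17 to 7.01 with a median of 5.38 at 24 h. It was higher in 8 of 8 dogs, with dog 7 already high at 6 h, and the groups overlapped. Its call was lost in a model without the dog (adjusted p = 0.0741), with the muscle mean as a covariate and without single dogs, and its adjusted p ran up to 0.741 over the alternatives. POSTN, which encodes periostin, a matrix protein known to be induced by interleukin 13, rose by 1.12 ± 0.28 (adjusted p = 0.00809) and was higher in 6 of 8 dogs. The call of POSTN was lost with the muscle mean as a covariate (0.91, adjusted p = 0.0605), and its adjusted p ran up to 0.716 over the alternatives.

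Other type 2 genes were uneven. IL9, a T cell cytokine that acts on mast cells, was between 2.03 and 2.83 with a median of 2.66 at 6 h, and between 2.85 and 6.73 with a median of 4.37 at 24 h. The groups did not overlap, which was so of 89 linked genes higher at 24 h (0.847%). Its rise was 1.89 ± 0.50 (adjusted p = 0.0114). IL33, an alarmin of epithelial cells, rose by 0.98 ± 0.24 (adjusted p = 0.00688), and CCL24, an eosinophil-attracting chemokine, by 0.85 ± 0.23 (adjusted p = 0.012). The call of CCL24 was lost in a model without the dog (adjusted p = 0.101) and with the muscle mean as a covariate (0.67, adjusted p = 0.0865), and its adjusted p ran up to 0.597. CCL24 was the one of these that also passed at 6 h against the control, by 0.98 (adjusted p = 0.02), where 4.4% of linked genes passed. Against the control at 24 h, where 10.9% passed, IL9 and CCL24 passed (1.83 and 1.83, adjusted p = 0.0225 and 3.45e-05). IL33 did not (0.76, adjusted p = 0.0517). IL4 and IL5 stayed dim, with means of 2.56 and 2.67 for IL4 and of 2.82 and 2.93 for IL5 (adjusted p = 0.639 and 0.5). At these dim signals, IL5 at 24 h was 0.45 above the control (adjusted p = 0.0111), and IL4 differed from it by 0.38 (adjusted p = 0.0807). IL4R, the receptor chain shared by interleukins 4 and 13, had means of 4.65 and 4.66, and CCL22, the other ligand of CCR4, of 5.24 and 5.23. In all, 8 of 22 linked genes of type 2 cytokines, chemokines and receptors rose and none fell in limma (9 and 1 at an unadjusted p under 0.05), with a median of 0.11.

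**Figure D2:**
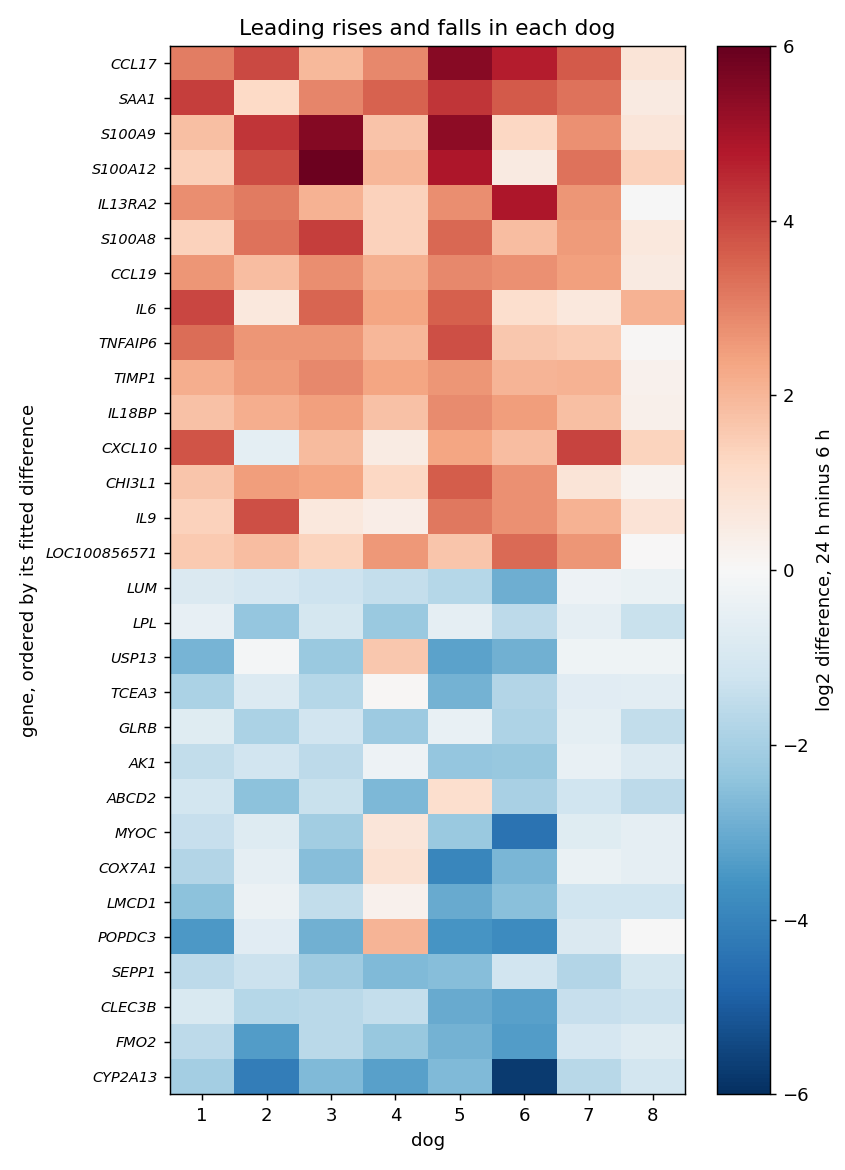
Log2 difference, 24 h minus 6 h, in each dog for the 15 linked genes with the largest rise and the 15 with the largest fall, among genes that passed and kept 1 sign in at least 7 dogs. Red is higher at 24 h and blue lower. Dog 8 is pale for most rises, and POPDC3, COX7A1, MYOC and USP13 are higher at 24 h in dog 4, whose 24 h biopsy was the muscle-rich one.

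The calgranulins, small calcium-binding alarmins of neutrophils and stressed keratinocytes, were among the largest rises. S100A9 lay between 5.37 and 8.83 with a median of 6.86 at 6 h, and between 7.66 and 12.15 with a median of 9.92 at 24 h. S100A9 rose by 2.93 ± 0.48, 7.60-fold (adjusted p = 0.000248), its calprotectin partner S100A8 by 2.33 ± 0.33 (adjusted p = 7.21e-05) and S100A12 by 2.90 ± 0.48 (adjusted p = 0.000275). Each was higher in 8 of 8 dogs, and in each the groups overlapped. Against the oil control at 6 h, S100A9 differed by -1.39 and did not pass (adjusted p = 0.122). S100A12 at 6 h differed from the oil control by -1.81 (adjusted p = 0.0401), and S100A8 had a mean of 9.37 against 10.57 (adjusted p = 0.0446). At 24 h S100A8 was above the control by 1.13 (adjusted p = 0.0305), where 10.9% of linked genes passed, and S100A12 differed from it by 1.09 (adjusted p = 0.184). The comparisons share the 6 h arrays.

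In the same antimicrobial and Th17/Th22 group, IL36G, an epidermal cytokine, rose by 0.78 ± 0.20 (adjusted p = 0.00935), from a mean that was 0.79 below the control at 6 h to a mean level with it at 24 h (6.02 against 6.03). The call of IL36G was lost with the muscle mean as a covariate (0.66, adjusted p = 0.0598). IL22 rose by 0.30 ± 0.10 (adjusted p = 0.0406) at dim signals of 2.57 ± 0.13 and 2.88 ± 0.24, a call lost when dog 2, 3, 4, 5, 7 or 8 was left out (adjusted p up to 0.134). IL17A had means of 2.77 and 2.72 and IFNG, the Th1 cytokine, of 3.24 and 3.18 (adjusted p = 0.736 and 0.652). Of 17 linked members of the calprotectin, antimicrobial and Th17/Th22 list, 6 rose and none fell in limma (7 and 1 at an unadjusted p under 0.05), with a median of 0.08.

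More than 1 in 2 linked acute phase and inflammatory genes rose. SAA1, an acute phase protein, ran from 6.96 to 10.09 with a median of 8.22 at 6 h and from 10.48 to 12.49 with a median of 11.35 at 24 h, without overlap. It rose by 2.95 ± 0.34, 7.73-fold (adjusted p = 1.04e-05), and by 2.53 without the muscle-rich arrays. IL6, the cytokine that drives the acute phase response, spread from 2.24 to 7.00 with a median of 3.10 at 6 h and from 4.63 to 7.65 with a median of 6.02 at 24 h. The groups overlapped, since dogs 2, 6 and 7 were already high at 6 h. Its rise of 2.23 ± 0.55 (adjusted p = 0.00663) was seen in 8 of 8 dogs, but was 1.65 and missed the threshold with the muscle mean as a covariate (adjusted p = 0.0632, and up to 0.66 over the alternatives). TNFAIP6, a hyaluronan-binding protein made in inflammation, rose by 2.22 ± 0.36 (adjusted p = 0.00023), and OSMR, the oncostatin M receptor, by 1.11 ± 0.21 (adjusted p = 0.000812). The ligand OSM had means of 3.01 and 3.13 (adjusted p = 0.298), and the neutrophil chemokine IL8 of 5.35 ± 2.21 and 6.76 ± 1.42 (adjusted p = 0.168). Against the control at 24 h, IL6 and OSMR did not pass (1.60 and 0.43, adjusted p = 0.0724 and 0.244). SAA1 and TNFAIP6 did (1.99 and 1.92, adjusted p = 0.000614 and 0.00148). Of 19 linked members of the list, 10 rose and none fell in limma (11 and 0 at an unadjusted p under 0.05), with a median of 0.79. The medians in dogs 2, 7 and 8 were 0.26, 0.84 and 0.20.

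Chemokines that recruit T cells and monocytes changed in both directions. CCL19, the ligand of CCR7 on dendritic cells and T cells, lay between 5.29 and 6.94 with a median of 5.96 at 6 h, and between 7.26 and 8.98 with a median of 8.43 at 24 h. All 24 h values exceeded all 6 h values. The rise was 2.25 ± 0.21 (adjusted p = 1.94e-06) and was 1.75 without the muscle-rich arrays. CCL19 at 6 h was 0.84 below the control (adjusted p = 0.0272). CXCL10, which attracts T cells bearing CXCR3, rose by 1.89 ± 0.41 (adjusted p = 0.00242), was lower in dog 2 alone, and reached 4.05 in dog 7. CCL2, a monocyte chemokine, rose by 1.80 ± 0.44 (adjusted p = 0.00681), with differences between 0.02 in dog 6 and 4.19 in dog 1. Its call was lost with the muscle mean as a covariate (1.32, adjusted p = 0.0651, and up to 0.503 over the alternatives), and the difference was 1.16 without the muscle-rich arrays. Against the control at 24 h CCL2 differed by 1.12 and did not pass (adjusted p = 0.131). CCL5 rose by 1.13 ± 0.35 (adjusted p = 0.0282), a call lost in a model without the dog (adjusted p = 0.0608, and up to 0.736 over the alternatives). CXCL12, a stromal chemokine, was the one of 12 linked members that fell, by 1.03 (SE 0.14, adjusted p = 6.02e-05), from 10.27 ± 0.47 to 9.24 ± 0.36 and in 8 of 8 dogs, against 7 members that rose and a median of 0.77. CXCL12 was 0.63 above the control at 6 h (adjusted p = 0.0161) and differed from it by -0.40 at 24 h (adjusted p = 0.0828). With the muscle mean as a covariate 3 members rose and 1 fell.

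Endothelial genes split. The leukocyte adhesion genes SELE, SELP and ICAM1 rose, and the junction genes PECAM1 and ESAM fell, out of 11 linked members with a median of -0.10. E-selectin, SELE, ran from 3.86 to 4.71 with a median of 4.16 at 6 h and from 4.87 to 6.57 with a median of 5.59 at 24 h, without overlap, and rose by 1.37 ± 0.22 (adjusted p = 0.00023). P-selectin, SELP, rose by 1.60 ± 0.29 (adjusted p = 0.000607), with dog 8 alone lower at 24 h. ICAM1 rose by 1.07 ± 0.22 (adjusted p = 0.00171). PECAM1, a general marker of endothelium, fell by 0.55 (SE 0.14, adjusted p = 0.0094), and ESAM by 0.33 (SE 0.08, adjusted p = 0.00577). With the muscle mean as a covariate both falls missed the threshold (adjusted p = 0.0801 and 0.076, and up to 0.379 and 0.699 over the alternatives), while the 3 rises passed. Without the muscle-rich arrays the difference was 0.77 for SELP and -0.14 for ESAM. In bulk skin, fewer cells of a type and less RNA per cell cannot be told apart.

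Leukocyte genes were grouped by cell type. Of 11 linked neutrophil genes 5 rose, among them S100A12, the Fc receptor FCGR3A by 0.97 ± 0.22 (adjusted p = 0.00406) and the amplifying receptor TREM1 by 0.85 ± 0.20 (adjusted p = 0.00415). Of 12 macrophage genes 4 rose, led by the Fc receptor FCGR1A at 1.44 ± 0.31 (adjusted p = 0.0024), and C1QC and GPNMB fell, each by 0.55. Of 19 dendritic cell genes 5 rose, led by BATF3, needed for dendritic cells that cross-present antigen, at 1.79 ± 0.27 (adjusted p = 0.000148), and IDO1, a tryptophan-degrading enzyme, at 1.05 ± 0.27 (adjusted p = 0.00816). The medians of these lists were 0.08, 0.00 and 0.12. With the muscle mean as a covariate 3 neutrophil, 2 macrophage and 2 dendritic cell genes rose, and 0 macrophage genes fell. Without the muscle-rich arrays the differences were 0.46 for FCGR3A and for TREM1 and 0.92 for FCGR1A, each over 1.5 times smaller. Against the control at 24 h, TREM1 and FCGR1A did not pass (0.41 and 0.82, adjusted p = 0.231 and 0.107). FCGR3A, BATF3 and IDO1 did (1.34, 1.85 and 1.18, adjusted p = 0.000516, 0.000166 and 0.00615). Without dog 2 the macrophage genes that rose numbered 2, and without dog 3 none of them fell. Of 17 T cell genes 2 rose, a share close to the 8.43% of all linked genes. GPR171, a G protein-coupled receptor, rose by 1.59 ± 0.25 (adjusted p = 0.000163) and CD3D, part of the CD3 complex of T cells, by 1.03 ± 0.27 (adjusted p = 0.011), or 0.60 without the muscle-rich arrays. The receptor CCR4 had means of 3.39 and 3.24 (adjusted p = 0.231).

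Lists of other cells are read against the 8.43% of linked genes that rose and the 8.17% that fell. Of 9 mast cell genes, the histamine-making enzyme HDC rose by 0.43 (adjusted p = 0.0432) and the prostaglandin-degrading enzyme HPGD fell by 0.48 (adjusted p = 0.00809). Of 13 B cell genes, CD79A and POU2AF1 fell, by 0.27 and 0.31, and neither call held without dog 3, 5 or 7. Among 12 cytotoxic lymphocyte genes, 4 eosinophil genes, 14 melanocyte genes, 7 nerve genes and 4 red blood cell genes, 0 passed in limma, with 1, 0, 1, 0 and 0 at an unadjusted p under 0.05.

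**Figure D3:**
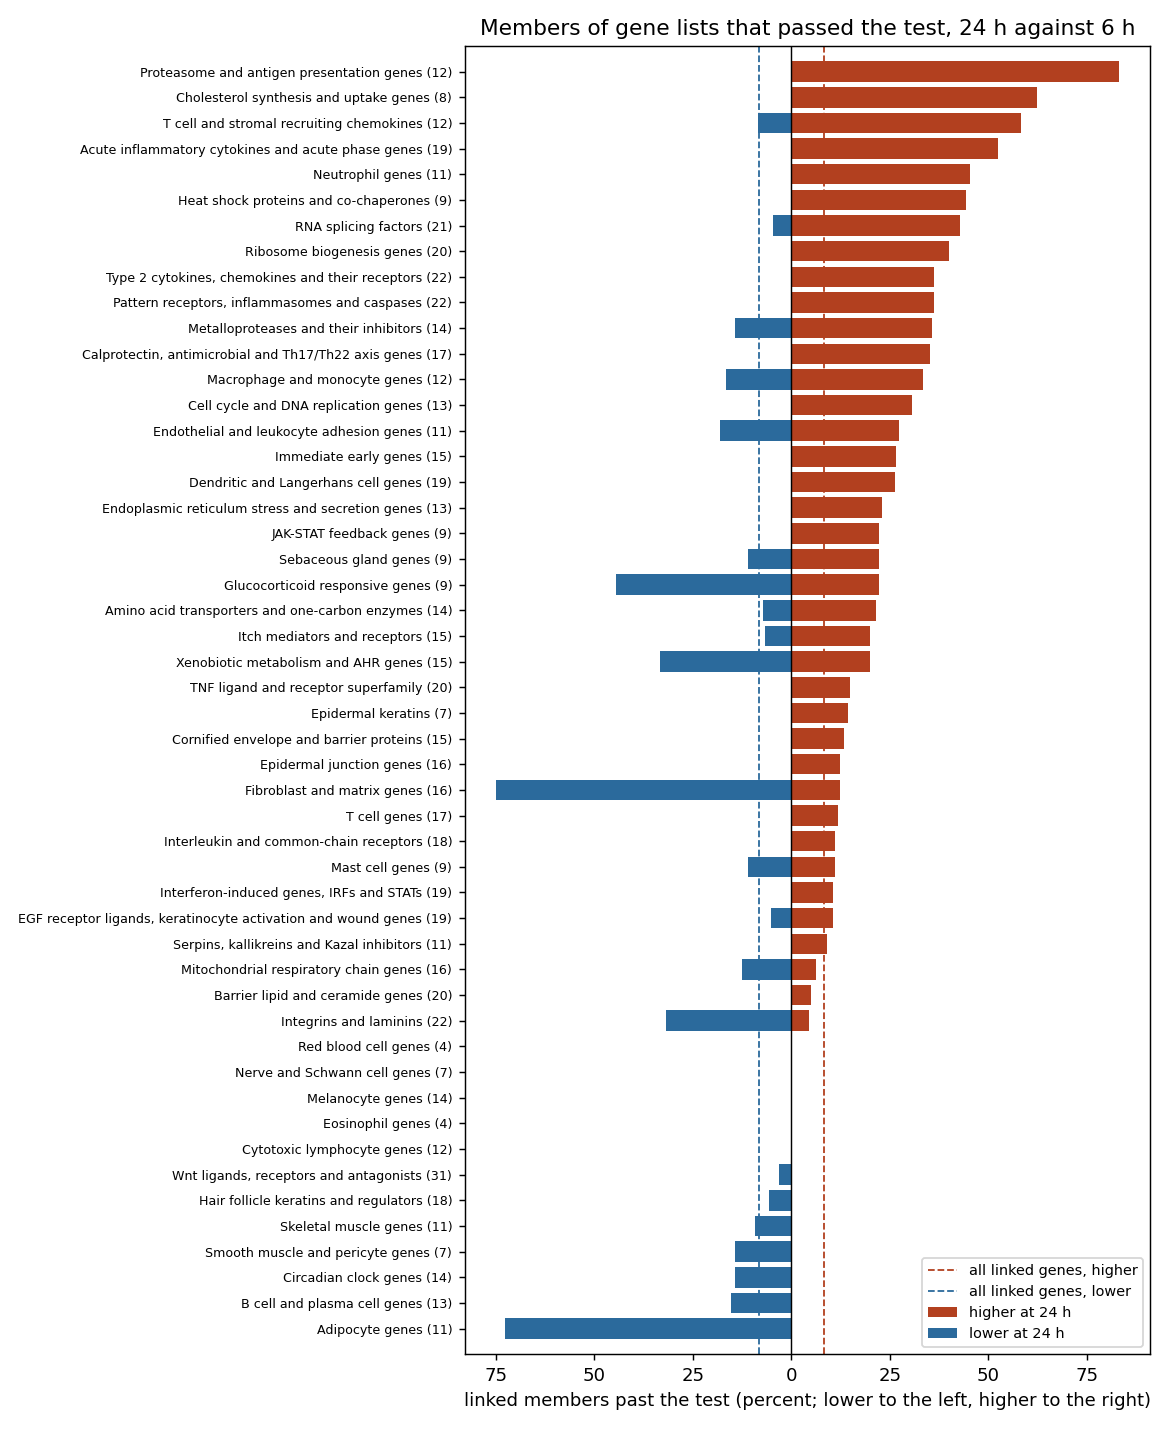
Share of the linked members of 50 gene lists that rose (right, red) or fell (left, blue) at 24 h against 6 h in limma at an adjusted p of 0.05, with the number of linked members in brackets. Dashed lines mark the shares over all linked genes, 8.43% for rises and 8.17% for falls. Proteasome and antigen presentation genes have the longest red bar, 10 of 12, and fibroblast and adipocyte genes the longest blue ones.

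Most linked proteasome and antigen presentation genes rose, many of them by little. Of 38 listed genes 12 were linked. Of these, 10 rose and none fell in limma (11 and 0 at an unadjusted p under 0.05), with a median of 0.33. The rises numbered 7 with the muscle mean as a covariate, 7 without dog 3 and 1 with the actin gap as a covariate. The largest rises were those of the immunoproteasome subunits PSMB8, by 1.29 ± 0.19 (adjusted p = 8.61e-05), and PSMB9, by 0.96 ± 0.20 (adjusted p = 0.00207), and of HLA-DMA, which loads peptides onto class II molecules, by 1.18 ± 0.20 (adjusted p = 0.000348). HLA-DMA ran from 5.78 to 6.71 at 6 h and from 6.72 to 8.59 at 24 h, so that the groups just failed to overlap. PSMB2, a subunit of the standard proteasome, rose by 0.39 ± 0.08 (adjusted p = 0.00158). The other proteasome genes that rose, PSMA3, PSMD12, PSMA6, PSMB1, PSMB6 and PSMB4, did so by 0.16 to 0.38. Of 19 interferon-induced genes and their regulators, the guanylate-binding proteins GBP1 and GBP5 rose, by 1.49 ± 0.27 (adjusted p = 0.000533) and 0.89 ± 0.24 (adjusted p = 0.0124). These 2 of 19 were a share close to the 8.43% of all linked genes that rose. The JAK kinase JAK2 rose by 0.72 and the feedback inhibitor CISH by 0.41, out of 9 linked JAK-STAT feedback genes.

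NLRP10, a NOD-like receptor of keratinocytes, lay between 3.21 and 4.32 with a median of 3.82 at 6 h, and between 5.15 and 5.98 with a median of 5.67 at 24 h. No 24 h value came near the 6 h range, dog 8 included, where the difference was 0.83. NLRP10 rose by 1.77 ± 0.24 (adjusted p = 5.87e-05), and by 1.61 without the muscle-rich arrays. GSDMC, a gasdermin, which can form membrane pores, rose by 1.75 ± 0.29 (adjusted p = 0.000288), by 0.18 in dog 2 and 0.34 in dog 4. Its 6 h values reached 4.73 and its 24 h values began at 4.79. CASP4, an inflammatory caspase, rose by 1.47 ± 0.27 (adjusted p = 0.000588), with overlap and with dog 8 lower at 24 h, and by 0.94 without the muscle-rich arrays. IL18BP, which neutralises interleukin 18, rose by 1.95 ± 0.27 (adjusted p = 6.49e-05) without overlap, and IL18RAP, a chain of the interleukin 18 receptor, by 0.72 ± 0.16 (adjusted p = 0.00286). Of 22 linked pattern receptor, inflammasome and caspase genes 8 rose and none fell in limma (10 and 1 at an unadjusted p under 0.05).

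Of the structural epidermal genes, KRT5 had means of 10.87 ± 0.49 and 11.21 ± 0.30 (adjusted p = 0.084), KRT10 of 11.75 ± 0.66 and 12.15 ± 0.66 (adjusted p = 0.246) and the desmosomal gene DSP of 9.17 ± 0.71 and 9.35 ± 0.39 (adjusted p = 0.572). The tight junction gene CLDN1 had means of 6.88 and 7.09 (adjusted p = 0.259), both below the control mean of 7.52. KRT79 was the one of 7 linked keratins that rose, by 0.84 ± 0.21 (adjusted p = 0.00709), a call lost with the muscle mean as a covariate (0.68, adjusted p = 0.0573). For the eotaxin CCL26, which has no linked probe set, the authors' deposited table gives folds against the control of -1.1 at 6 h and 1.3 at 24 h (authors' adjusted p = 0.839 and 0.078).

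Lists of basic cell processes held some rises. EBP, an enzyme of cholesterol synthesis, rose by 0.88 ± 0.10 (adjusted p = 1.04e-05), and SQLE, which makes squalene epoxide, by 0.74 ± 0.12 (adjusted p = 0.000253), among 5 of 8 linked cholesterol genes that rose. Of 13 linked cell cycle and DNA replication genes 4 rose. Among them, MCM4 and PCNA, which act in DNA replication, rose by 0.69 ± 0.10 (adjusted p = 0.000132) and 0.63 ± 0.08 (adjusted p = 3.99e-05). In both the groups did not overlap, and MCM4 differed by 0.45 without the muscle-rich arrays. Of 20 ribosome biogenesis genes 8 rose, led by FBL, which modifies ribosomal RNA, at 0.60 ± 0.10 (adjusted p = 0.000277). Of 21 splicing factors 9 rose, led by HNRNPD at 0.69 ± 0.09 (adjusted p = 3.78e-05), and RBM39 fell by 0.31. The chaperone HSPA8, the first of 4 heat shock genes that rose among 9, rose by 0.62 ± 0.10 (adjusted p = 0.000168). With the muscle mean as a covariate, rises numbered 3 for cholesterol, 3 for cell cycle, 4 for ribosome biogenesis, 6 for splicing and 3 for heat shock genes. With the actin gap as a covariate they numbered 3, 0, 0, 1 and 0. Some genes of these lists were below the control at 6 h. HSPA8 was 0.47 below the control at 6 h (adjusted p = 0.00914) and 0.15 above it at 24 h (adjusted p = 0.404). The corresponding values of HNRNPU were -0.34 (adjusted p = 0.0359) and 0.18 (adjusted p = 0.247).

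Matrix genes fell, with exceptions. Of 16 linked fibroblast and matrix genes 12 fell and 2 rose, with a median of -0.49 against -0.03 over all linked genes, and 9 fell and 1 rose with the muscle mean as a covariate. LUM, the collagen-binding proteoglycan lumican, ran from 9.74 to 11.95 with a median of 10.45 at 6 h, and from 8.73 to 9.76 with a median of 9.26 at 24 h. The ranges overlapped only at their ends, and dog 6 stood far above the others at 6 h. LUM fell by 1.24 (SE 0.19, adjusted p = 0.00016), and by 0.55 without the muscle-rich arrays. COL1A2, a chain of type I collagen, fell from 8.26 ± 0.22 to 7.41 ± 0.38, by 0.85 (SE 0.14, adjusted p = 0.00021), with no overlap, which was so of 60 linked genes lower at 24 h (0.571%). The members that rose were POSTN and VCAN, the proteoglycan versican, at 1.19 ± 0.26 (adjusted p = 0.00247). Among 22 integrins and laminins 7 fell, led by LAMB2 and LAMA2 at -0.72 and -0.70, and ITGA4, a leukocyte integrin chain, rose by 0.48 ± 0.13 (adjusted p = 0.0112). The call of ITGA4 was lost with the muscle mean as a covariate (0.36, adjusted p = 0.0912).

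Enzymes that remodel the matrix moved both ways. TIMP1, an inhibitor of metalloproteases, ran from 7.30 to 9.42 with a median of 7.99 at 6 h and from 8.22 to 11.45 with a median of 10.55 at 24 h. The groups overlapped, with dog 8 low at 24 h and dog 6 high at 6 h. It rose by 2.12 ± 0.30 (adjusted p = 7.73e-05), by 2.03 or more in dogs 1 to 7 and by 0.27 in dog 8. Of 14 linked metalloproteases and inhibitors 5 rose and 2 fell, and 3 rose without dog 2 or dog 3. MMP7 rose by 1.31 ± 0.30 (adjusted p = 0.00446) and ADAMTS4 by 0.84 ± 0.14 (adjusted p = 0.00026), while MMP2 and TIMP2 fell, by 0.60 (adjusted p = 0.00045) and 0.66 (adjusted p = 0.0036). MMP2 was 0.39 above the control at 6 h (adjusted p = 0.0415) and differed from it by -0.21 at 24 h (adjusted p = 0.261). Against the control at 24 h MMP7 differed by 0.64 (adjusted p = 0.225), while ADAMTS4 passed (0.73, adjusted p = 0.00177). HAS2, which makes hyaluronan, rose by 1.22 ± 0.25 (adjusted p = 0.00181), and TNC, the matrix protein tenascin C, fell by 0.69 (adjusted p = 0.0014).

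The 2 largest falls among linked genes that passed were in detoxifying enzymes. CYP2A13, a cytochrome P450, spread from 5.94 to 9.36 with a median of 7.26 at 6 h, and from 3.31 to 6.80 with a median of 4.35 at 24 h. It was lower in 8 of 8 dogs, from -1.08 in dog 8 to -5.75 in dog 6, and the groups overlapped through dog 8. The fitted fall was 2.90 on the log2 scale (SE 0.45, adjusted p = 0.00016), and the difference was -1.81 without the muscle-rich arrays. FMO2, a flavin monooxygenase, was between 7.16 and 8.98 with a median of 8.11 at 6 h and between 4.27 and 7.41 with a median of 6.02 at 24 h. It fell by 2.09 (SE 0.28, adjusted p = 4.9e-05), in 8 of 8 dogs, with only the 24 h value of dog 8 inside the 6 h range. The aryl hydrocarbon receptor target CYP1A1 fell by 0.68 (adjusted p = 0.0404), and was 0.92 above the control at 6 h (adjusted p = 0.0278). Of 15 linked xenobiotic metabolism genes 5 fell and 3 rose, with a median of -0.14. Leaving out 1 dog gave 2 to 4 falls, with 2 without dog 3, and 1 to 3 rises, with 1 without dog 1, 3, 4 or 6.

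SEPP1 and CLEC3B fell in 8 of 8 dogs without overlap. SEPP1, which encodes the selenium carrier selenoprotein P, ran from 7.07 to 7.99 with a median of 7.73 at 6 h and from 4.97 to 6.83 with a median of 5.76 at 24 h. It fell by 1.77 (SE 0.22, adjusted p = 1.85e-05), and by 1.52 without the muscle-rich arrays. CLEC3B, which encodes the plasminogen-binding protein tetranectin, fell by 1.82 (SE 0.22, adjusted p = 1.85e-05), from 9.96 ± 0.85 to 8.13 ± 0.45. The glucocorticoid-responsive genes ZBTB16, TSC22D3 and KLF9 fell by 1.10, 0.60 and 0.59 (adjusted p = 0.000837, 0.00343 and 0.000569), and DUSP1, which also belongs to the immediate early genes, rose by 0.66 (adjusted p = 0.0156). Of 9 linked glucocorticoid-responsive genes 4 fell and 2 rose. The 4 falls were also 4 without each dog, and the rises were 0 without dog 1 and without dog 3. Without the muscle-rich arrays ZBTB16 differed by -0.36 and KLF9 by -0.32.

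Of 11 linked adipocyte genes 8 fell and none rose in limma (9 and 0 at an unadjusted p under 0.05), with a median of -0.65, and the medians in dogs 2, 7 and 8, matched in muscle, were -1.40, -0.26 and -0.65. Only 4 fell without dog 2, and 5 without dog 4, in a model without the dog and with the muscle mean as a covariate. ADIPOQ, the hormone adiponectin, ran from 11.35 to 12.76 with a median of 12.31 at 6 h and from 10.65 to 11.70 with a median of 10.96 at 24 h. The groups overlapped, since dog 5 was low at 6 h. It fell by 1.12 (SE 0.28, adjusted p = 0.00653) and was lower in 8 of 8 dogs. LEP, the hormone leptin, fell by 1.05 (SE 0.33, adjusted p = 0.0303), and LPL, the lipase that frees fatty acids from lipoproteins, by 1.26 (SE 0.40, adjusted p = 0.0296). Leaving out dog 2, 4 or 8 ended the call of LEP (adjusted p up to 0.0926), and leaving out dog 2 or 4 that of LPL (up to 0.0807). ABCD2, a peroxisomal fatty acid transporter, fell by 1.41 (SE 0.35, adjusted p = 0.00638), with dog 5 alone higher at 24 h.

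Several of the other large falls moved with muscle. POPDC3, COX7A1, MYOC, USP13, TCEA3 and LMCD1 fell by 1.65, 1.45, 1.43, 1.27, 1.28 and 1.49. Each was higher at 24 h in dog 4, whose 24 h biopsy alone was muscle-rich, and lower in the other 7 dogs. POPDC3 differed by -3.44 to -3.79 in dogs 1, 5 and 6, by 2.04 in dog 4 and by -0.01 in dog 8. With the muscle mean as a covariate its difference was -0.40. Without the muscle-rich arrays the differences were -0.50 for POPDC3, -0.61 for COX7A1, -0.60 for MYOC, -0.42 for USP13 and -0.85 for TCEA3. AK1, an adenylate kinase, fell by 1.30 (adjusted p = 0.00188) in 8 of 8 dogs and differed by -0.79 without the muscle-rich arrays and by -0.73 with the covariate. The muscle genes themselves spread most, as in MYH2, which differed by -10.73 in dog 5 and 7.92 in dog 4 (fitted difference -4.53, adjusted p = 0.0739). Of 11 linked muscle genes 1 passed in limma, ACTN2, which fell by 0.40 (adjusted p = 0.00787). At an unadjusted p under 0.05, 9 fell and 0 rose, and the median of the list was -1.97.

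Single dogs decided some of these calls. The calls of CISH, C1QC, COX7A1 and POPDC3 were lost without dog 3 and without dog 5, among others. That of IL13 was lost without dog 1, 3 or 5, that of CCL5 without dog 2, 5 or 6, and that of GPNMB without dog 3 alone. RBM39 kept its call only where dog 6 was the one left out. Over all fits that left out 1 dog, the highest adjusted p was 0.0685 for CISH, 0.0983 for C1QC, 0.0909 for COX7A1, 0.122 for POPDC3 and 0.169 for USP13. It was 0.0999 for IL13, 0.0718 for CCL5, 0.0877 for DUSP1, 0.15 for RBM39 and 0.0563 for GPNMB. It was 0.098 for HDC, 0.119 for CD79A, 0.144 for POU2AF1 and 0.149 for CYP1A1, so that none of these calls held in every such fit. Those of CCL17, SAA1, S100A9, CCL19, NLRP10, FMO2, CLEC3B and SEPP1 did, with an adjusted p of at most 0.00305.

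**Figure D4:**
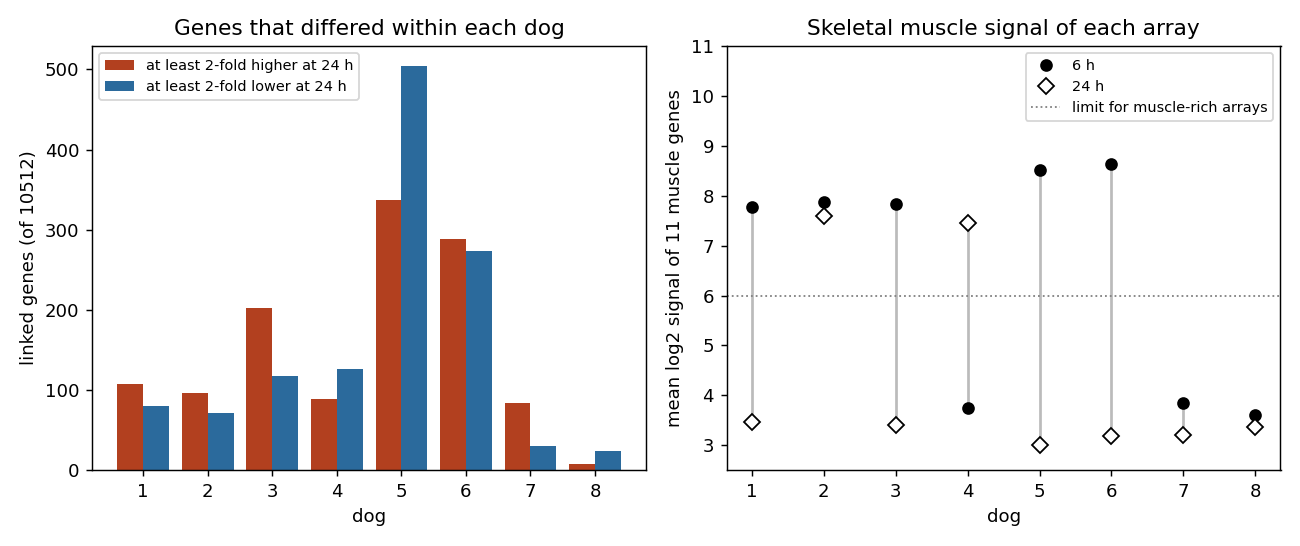
Left, number of 10512 linked genes at least 2-fold higher (red) or lower (blue) at 24 h than at 6 h in each dog. Right, mean log2 signal of 11 muscle genes on the 6 h (filled) and 24 h (open) array of each dog, with the dotted line at 6 that separates muscle-rich arrays. Dog 8 has the fewest genes in either direction and low muscle signal at both times.

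The dogs differed in how much their skin changed. In dog 5, 337 linked genes were at least 2-fold higher and 504 at least 2-fold lower at 24 h, and in dog 6, 288 and 274. In dogs 1, 2, 3, 4 and 7 the genes higher numbered 84 to 202 and those lower 30 to 126. Dog 8 had 8 and 24. The SD of the differences over linked genes was 0.25 in dog 8 and 0.34 to 0.64 in the others. Over the 15 leading rises, which were chosen with all dogs in the fit, the median difference was 0.54 in dog 8 and 2.00 to 3.44 in the other 7, and dog 8 had the smallest rise in 11 of the 15. IL6 was an exception, at 2.08 in dog 8 against 0.65 in dogs 2 and 7. Over the 15 leading falls the median was -0.83 in dog 8 and -0.74 in dog 7. Dog 7, whose muscle signal was also low at both times, had a median of 2.55 over the leading rises.

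Of the 15 leading rises 13 were higher in 8 of 8 dogs, and 8 of the 15 leading falls were lower in 8 of 8. Both sets were chosen among genes that passed with 1 sign in at least 7 of 8 dogs, so these counts partly follow from the choice. Over all linked genes, which were not so chosen, the shares were 5.04% and 4.63%. The groups did not overlap in SAA1, CCL19, IL18BP and IL9 among the rises. The remaining leading rises were CHI3L1, a chitinase-like protein, at 1.89 ± 0.37 (adjusted p = 0.00103), or 0.94 without the muscle-rich arrays, and LOC100856571, described in the authors' table as similar to an ATP-binding cassette transporter of subfamily C, at 1.89 ± 0.24 (adjusted p = 2.46e-05). The remaining fall was that of GLRB, a glycine receptor subunit, by 1.29 (adjusted p = 0.00205).

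From 24 h to 48 h 2.85% of linked genes passed, against 16.6% from 6 h to 24 h, and both comparisons use the 24 h arrays. S100A9 rose again from 24 h to 48 h, by 2.45 (adjusted p = 0.00677), IL13RA2 by 1.42 (adjusted p = 0.0274) and CD3D by 1.39 (adjusted p = 0.00677). SAA1 differed by 0.49 (adjusted p = 0.581), CXCL10 by -0.76 (adjusted p = 0.422) and SELE by -0.08 (adjusted p = 0.924). Whether the change per interval differed was not tested.

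**Figure D5:**
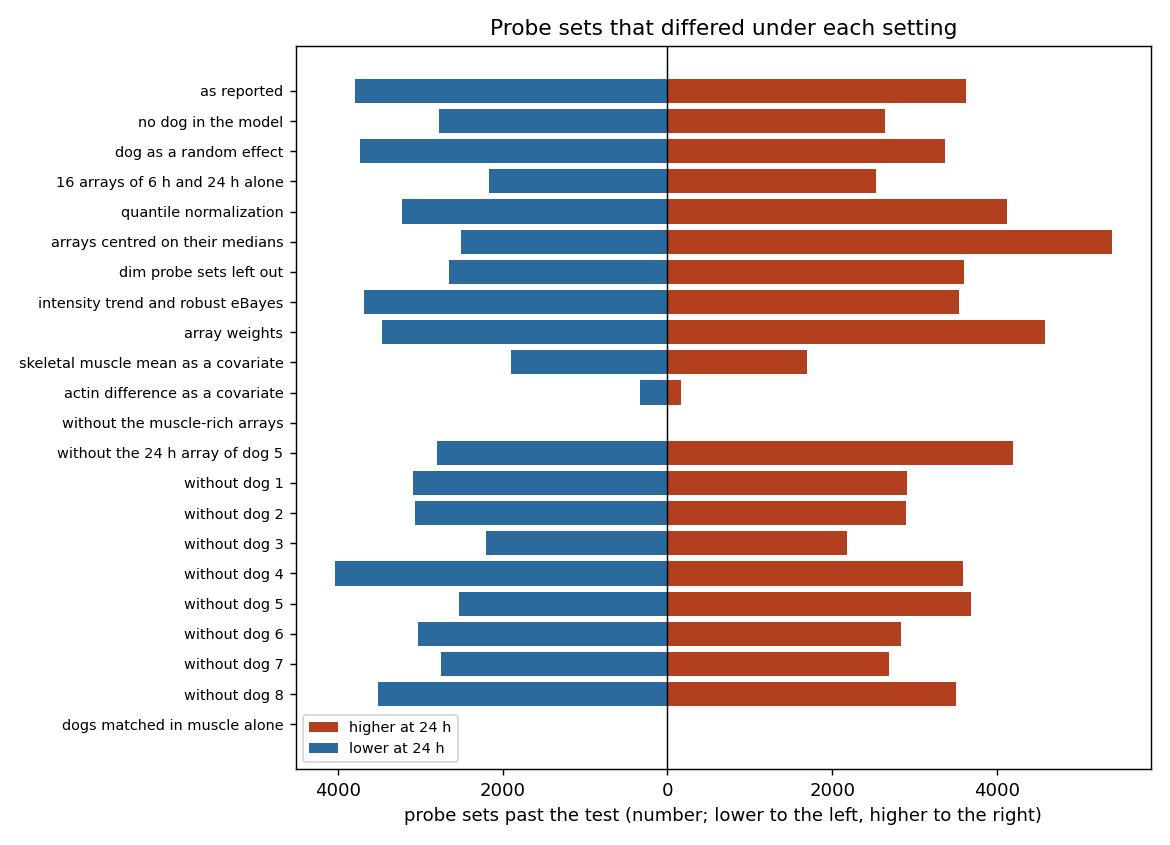
Number of probe sets higher (red, right) or lower (blue, left) at 24 h than at 6 h in limma at an adjusted p of 0.05, as reported and under each alternative setting. The counts are 0 without the muscle-rich arrays and in the 3 dogs matched in muscle, and 160 and 327 with the actin gap as a covariate.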

How the data were processed

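The deposited value table holds log2 signals of 43035 probe sets on 32 arrays, 1 biopsy each. The sources used here do not say how the authors summarised or normalized them. Per the labels, RNA came from homogenised biopsies and carried a biotin label. A second table from the authors gives signed folds (a fall has a minus sign) and adjusted p-values against the control for 17107 genes. Genes were named by equal values: a gene was linked where its 3 folds (within 0.05) and p-values (within 0.001) equalled those of exactly 1 probe set in an ordinary linear model without the dog. This linked 10512 genes (61.4%). With shuffled values 27.8 genes were linked on average, so about 10.7 links may be wrong. Genes not linked were not analysed here, and no probe set was checked for signal above background, so dim values may be background.

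The model had 4 groups and a fixed term for the dog over the 32 arrays (limma 3.58.1, R 4.3.3, 21 residual degrees of freedom). It left out 175 array controls. Tests are two-sided with Benjamini-Hochberg adjustment over 42860 probe sets. The labels name the dog of each biopsy, which gives the pairing. The deviations of the 6 h and 24 h arrays of a dog correlated at 0.18 on average (-0.24 to 0.56, 4 of 8 above 0.1). Whole-array measures were tested by exact permutation of signs within dogs. The fit was tested on simulated data. Named genes are the 15 largest rises and 15 largest falls among genes that passed with 1 sign in at least 7 of 8 dogs, up to 4 passed members for each of 50 gene lists, 30 genes of the series' question, of which 25 were linked, and skin and muscle markers (14 named for that alone, such as KRT5 and MYH2). CXCL12, RBM39, ESAM, MMP2 and C1QC were added after their values were seen. The members, lists and rules were chosen with earlier results of these data known. The labels give 1 biopsy per dog and time, so the spread includes differences between sites. Alternatives were 21 settings: the dog left out of the model or as a random effect, 16 arrays alone, quantile normalization, centring, dim probe sets left out, an intensity trend with robust eBayes, array weights, muscle or actin as a covariate, and sets of arrays or single dogs left out. Some results are not reported here.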

Additional observations from a re-analysis of the deposited data

Results flagged for a closer look

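In 32 of 358 groups of 8 values looked at (each named gene and whole-array measure at 6 h and at 24 h), 1 array stood apart from the nearest other by more than Dixon's critical share of the group's range, where chance gives about 1 in 20. The causes were not tested. Dog 6 accounts for 13. Its 6 h array was high for CLEC3B (11.87, next 10.36), LUM (11.95, next 10.64), OGN (8.19, next 6.20), LAMB2 (5.80, next 5.23), GSTT1 (8.90, next 6.24), IL33 (9.03, next 7.11), SLC43A1 (7.21, next 6.57) and CCR4 (3.84, next 3.40). It was low for KRT5 (9.77, next 10.62), DSP (7.51, next 9.01) and the hair follicle regulator LHX2 (6.30, next 7.30). Other matrix and stromal genes were mixed on this array. POSTN was at its lowest 6 h value (6.84) and COL1A2 at the median (8.24), while TIMP2 (8.77) and CXCL12 (11.18) were at their highest. This array was also the richest in muscle at 6 h (8.64). At 24 h dog 6 was high for CD3D (7.62, next 6.09) and ATP5A1 (11.92, next 11.78).

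The 24 h array of dog 5 had the lowest array median (4.64, next 4.84) and a low gap for the other 5′ actin probe set (1.5, next 2.57). It was low for CCL22 (4.61, next 5.08), GAL (7.81, next 8.30), PSMB2 (10.31, next 10.68) and RORB (1.94, next 2.31), and high for the feedback inhibitor CISH (6.37, next 5.68). At 6 h dog 2 was high for CCL17 (6.40, next 4.98), IL4 (3.63, next 2.73) and GBP5 (4.60, next 3.71), and at 24 h for the muscle gene MYL2 (5.46, next 3.54). Dog 7 was high for IL13 at 6 h (6.33, next 4.95). In dog 8, IL9 was low at 6 h (2.03, next 2.52), SELP (4.82, next 6.40) and IL5 (2.47, next 2.83) were low at 24 h, and CYP1A1 was high at 24 h (7.48, next 5.95). At 6 h dog 1 was low for IL36G (4.29, next 5.18) and dog 4 for LOC100856571 (4.29, next 5.56). At 24 h dog 3 was low for GLRB (4.28, next 5.02).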

How the results depend on the processing

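The counts of 3621 rises and 3795 falls depended on arrays and covariates. With the muscle mean as a covariate they were 1695 and 1898, and with the actin gap 160 and 327. Without the muscle-rich arrays, and in the 3 dogs matched in muscle (a setting chosen after seeing the data), they were 0 and 0, in fits with fewer arrays. The members of gene lists past the test numbered 195, and under these 4 settings 122, 18, 0 and 0. Falls numbered 2167 in the 16 arrays alone and 2501 with arrays centred on their medians. Leaving out a dog, or the 24 h array of dog 5 alone, gave 2181 to 4195 rises, 2197 to 4033 falls (both lowest without dog 3) and 146 to 193 list members. Without the replicate block for the dog there were 2636 rises and 2770 falls, and 26 of the 151 named genes that passed lost their call. The muscle covariate ended 50 of these 151 calls and the actin gap 136. Signs turned for GDNF (0.01) and NAMPT (-0.01) with the actin gap, both near 0, and for the muscle genes SLN (0.67) and MYLPF (0.42) with the muscle covariate, PYGM (0.24) without the muscle-rich arrays and TNNI1 (0.07) in the matched dogs, none of which had passed. Other genes that had not passed and lay near 0 turned too. The muscle mean differed by -2.98 to -1.66 without single dogs, passing without dog 4 (exact p = 0.016), the actin gap by -0.77 to -0.65 and the array median by -0.07 to -0.03. Quantile normalization set the array median difference to 0.00. The other settings (the dog as a random effect, dim probe sets left out, an intensity trend with robust eBayes, array weights and quantile normalization) kept each of the 3 counts within 1.5 times. The causes were not tested. Gene names cover 61.4% of the authors' table, and dim signals such as those of IL4, IL5 and IL22 limit what can be seen.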
